A study of Mus musculus with 6 samples.

Results

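The 10 genes described here are markers of neutrophils: the receptor genes Cxcr2 and Csf3r, the cytosolic S100a8 and S100a9, the secreted Retnlg, and the granule genes Mmp8, Mmp9, Lcn2, Ngp and Camp. They were found by symbol among the 57010 genes of the deposited count matrix, and all 10 had 1 row each. They were selected on their lower counts in mutants than in controls of these same libraries, so those differences are given as a description and support no claim. RNA was sequenced from the gastrocnemius, a calf muscle, of 6 untreated mice aged 3 months. The 3 mutants were homozygous for Dysfprmd on strain B6.A-Dysfprmd/GeneJ (BLAJ), in which dysferlin, a membrane repair protein of the muscle fibre, is lacking. The 3 controls were wild-type mice labelled C57BL/6. Libraries are called C1 to C3 for controls and M1 to M3 for mutants, the digit being the replicate number in the labels. C1, C2, C3 and M3 were male, and M1 and M2 were female.

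Neutrophils are short-lived granulocytes of the blood that are made in the bone marrow. Their granules form in sequence as the cell matures, first the primary granules with myeloperoxidase and elastase, then the specific granules with lactoferrin and cathelicidin, then the gelatinase granules. Transcripts of granule proteins are most abundant in marrow precursors, whereas circulating cells are rich in S100a8, S100a9 and the receptors for chemokines and granulocyte colony-stimulating factor. After muscle injury neutrophils are among the first blood cells to enter the tissue, ahead of monocytes.

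The upstream sequences below are shown as a description only. The members share a direction because they were chosen by it, so the strings do not bear on the group difference. RefSeq (GRCm38.p6, another build than the GRCm39 named in the submitters' processing notes) gave a promoter for 9 of the 10 genes, and the 250 bases before the annotated start were searched on both strands. Capitals mark TTGCNNAA, a string of the kind bound by C/EBP factors, and GAGGAAG, of the kind bound by PU.1. Both kinds of factor direct granulocyte genes. A CTTCCTC in capitals is GAGGAAG on the other strand, and the TTGGGCAA of Ngp is TTGCNNAA on the other strand. Each sequence runs 5′ to 3′ on the strand of its gene.
Csf3r, chr4:126024409-126024658, plus strand: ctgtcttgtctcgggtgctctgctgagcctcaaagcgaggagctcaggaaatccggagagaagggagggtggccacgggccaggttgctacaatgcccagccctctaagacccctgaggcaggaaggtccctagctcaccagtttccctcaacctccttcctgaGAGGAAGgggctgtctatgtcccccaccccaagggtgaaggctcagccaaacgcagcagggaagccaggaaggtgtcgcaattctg
Mmp8, chr9:7558179-7558428, plus strand: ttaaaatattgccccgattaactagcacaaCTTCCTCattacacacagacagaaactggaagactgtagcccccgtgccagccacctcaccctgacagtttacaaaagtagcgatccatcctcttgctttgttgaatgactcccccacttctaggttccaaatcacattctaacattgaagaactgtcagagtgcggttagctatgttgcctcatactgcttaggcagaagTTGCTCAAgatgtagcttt
S100a8, chr3:90668821-90669070, plus strand: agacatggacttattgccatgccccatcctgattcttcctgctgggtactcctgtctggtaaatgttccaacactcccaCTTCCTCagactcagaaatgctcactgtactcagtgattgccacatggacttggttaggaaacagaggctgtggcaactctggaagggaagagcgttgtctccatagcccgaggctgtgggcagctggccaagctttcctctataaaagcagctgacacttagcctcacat
S100a9, chr3:90695722-90695971, minus strand: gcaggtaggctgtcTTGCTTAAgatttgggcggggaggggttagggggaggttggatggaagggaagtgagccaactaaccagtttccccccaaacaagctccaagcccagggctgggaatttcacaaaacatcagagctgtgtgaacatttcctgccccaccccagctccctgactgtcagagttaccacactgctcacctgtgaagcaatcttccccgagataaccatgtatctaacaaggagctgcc
Ngp, chr9:110419558-110419807, plus strand: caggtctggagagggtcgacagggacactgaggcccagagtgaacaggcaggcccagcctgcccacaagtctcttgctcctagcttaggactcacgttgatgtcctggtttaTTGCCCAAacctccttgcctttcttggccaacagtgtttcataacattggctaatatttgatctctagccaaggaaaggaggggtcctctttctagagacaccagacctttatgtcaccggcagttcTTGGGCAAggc

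TTGCNNAA was present upstream of 5 of the 9 members (S100a9, Mmp8, Ngp, Lcn2 and Retnlg) and of 9.56% of the 32851 promoters in the table. GAGGAAG was present upstream of 4 of the 9 (Csf3r, S100a8, Mmp8 and Lcn2) and of 10.6% of all promoters. The 2 strings did not overlap each other in the printed sequences. They are the most selective of the related strings searched. The looser TTNNGNAA was present upstream of 6 members and 36.8% of promoters, and TTGNNNAA of 6 and 33.3%. The shorter GAGGAA was present upstream of 5 members and 23.3% of promoters, which is nearer to the background, and AGGAAG of 6 and 29.5%. A match is a description of these letters and was not tied to binding here.

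The libraries held 35042245 to 43733641 read pairs in genes, so that 3 counts in 1 library correspond to 0.0680 to 0.0827 CPM, the count over the library size after scaling for composition. The targeted gene Dysf lay at 72.3, 99.8 and 145 CPM in C1, C2 and C3 and at 15.8, 14.7 and 20.3 CPM in M1, M2 and M3, in the direction of the labels. The controls also held 2 transcripts that C57BL/6 mice lack, Ifi202b (1.02 to 7.69 CPM) and H2-Ea-ps (2.37 to 3.44 CPM), against their strain label, and strain and loss of dysferlin cannot be told apart in any value below. C1 had the highest mitochondrial share of counts, at 9.75% against 4.28% to 6.96% in the others, and 9.78% multimapping pairs against 5.83% to 7.52%. The muscle markers Myh4, Acta1, Tnnt3, Ckm, Mylpf, Tnni2 and Myh1 summed to 124679 to 171572 CPM in controls and 130289 to 163580 CPM in mutants, which fits the labelled tissue. In RNA from whole muscle, fewer neutrophils and less of these transcripts per neutrophil cannot be told apart.

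The 10 members together summed to 33.4, 17.4 and 12.1 CPM in C1, C2 and C3 and to 12.5, 4.96 and 5.50 CPM in M1, M2 and M3. C1 lay far above the other controls, and M1 lay between C3 and C2, so the groups overlapped in the sum. Of the 10 members, 8 passed the filter on low counts, and all 8 had a lower mean in the mutants, with log2 fold changes from -2.12 to -0.46 and a median of -1.57. Over all 15589 genes tested, 50.2% were lower and the median was -0.0015. Mmp8 and Retnlg did not reach the filter level of 0.248 CPM in every mutant library, and Mmp8 passed through the controls alone, which fixed its direction. Ngp and Camp did not pass.

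The edgeR quasi-likelihood fit over all genes called 0 members and DESeq2 called 0. At an unadjusted p below 0.05 the counts were 6 of 8 in edgeR and 7 of 8 in DESeq2. Of all genes, edgeR called 0.199% and DESeq2 1.18% after adjustment, and 3.69% and 4.14% were lower at an unadjusted p below 0.05. The authors' deposited table lists 9 of the 10 members, Camp being the exception, and 0 of them past an adjusted p of 0.05. In 6 of the 8 tested members every mutant lay below every control, a pattern that 6.09% of all tested genes showed. Because this contrast chose the members, nothing is read from these shares.

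**Figure D1:**
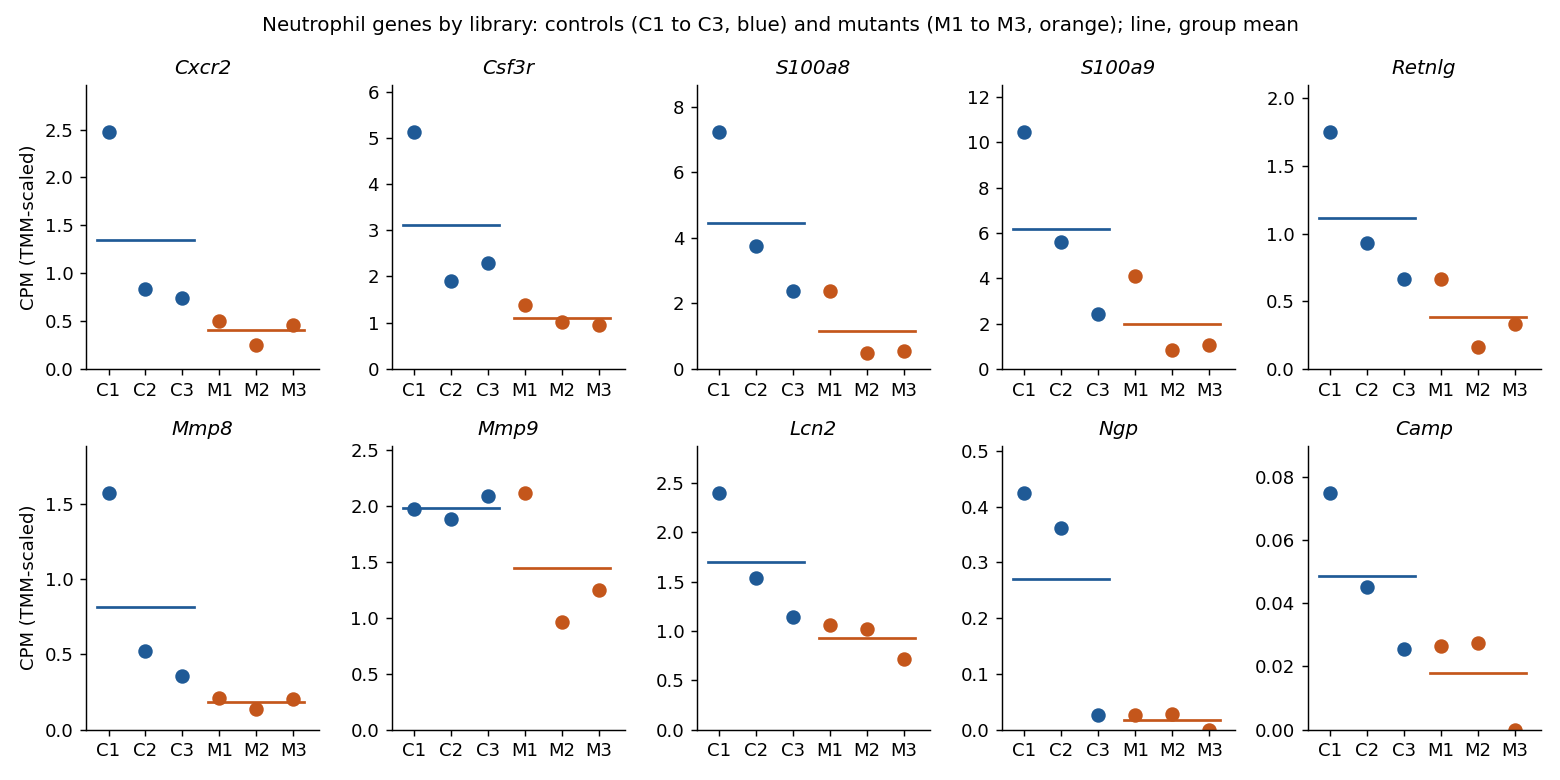
CPM of each member (vertical axis, linear from 0) in the 3 control libraries (C1 to C3, blue) and the 3 mutant libraries (M1 to M3, orange), with the group mean as a line. C1 is the highest library in 9 of the 10 panels, the exception being Mmp9, where M1 is the highest.

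Both receptors were lower in every mutant than in every control. Cxcr2, the receptor through which neutrophils follow CXC chemokines out of the marrow and into tissue, lay at 2.47, 0.838 and 0.737 CPM in C1, C2 and C3. It lay at 0.502, 0.248 and 0.458 CPM in M1, M2 and M3. C1 was well above C2 and C3, and the gap from C3 to M1 was smaller than that from C1 to C2. The means were 1.35 ± 0.974 CPM in controls (SD, n = 3) and 0.403 ± 0.136 CPM in mutants (n = 3). The log2 fold change was -1.73 (SE 0.57), and -0.97 without C1.

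Csf3r, the receptor for granulocyte colony-stimulating factor, which drives the making and release of neutrophils, lay at 5.12, 1.90 and 2.29 CPM in C1, C2 and C3. It lay at 1.37, 1.02 and 0.942 CPM in M1, M2 and M3. C1 was again the highest control, the mutants were close to each other, and the groups did not overlap. The means were 3.10 ± 1.76 and 1.11 ± 0.231 CPM and the log2 fold change was -1.48 (SE 0.43), or -0.92 without C1. Within a library, Cxcr2 made up 32.6%, 30.6% and 24.4% of the pairs of both receptors in C1, C2 and C3 and 26.8%, 19.6% and 32.7% in M1, M2 and M3. The exact 95% binomial intervals of these shares, the widest being 20.7% to 46.7% in M3, all overlapped. A change in the balance of the receptors was not tested. Such intervals cover counting error only.

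S100a8 and S100a9, whose products pair as calprotectin, the main soluble protein of the neutrophil cytosol, were the most abundant members. Per kilobase of exon (GENCODE M21 lengths), S100a9 reached 11.8 ± 7.74 CPM in controls and S100a8 reached 6.42 ± 3.58 CPM (SD, n = 3). S100a9 was first and S100a8 next in all 6 libraries, and Retnlg followed in 5 of 6. Their starts lie close together on chromosome 3, in a cluster of S100 genes.

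S100a8 lay at 7.22, 3.76 and 2.39 CPM in C1, C2 and C3 and at 2.38, 0.496 and 0.560 CPM in M1, M2 and M3. M1 was level with C3, while M2 and M3 were far below every control. The means were 4.46 ± 2.49 and 1.15 ± 1.07 CPM and the log2 fold change was -1.96 (SE 0.71). It was -3.07 without M1, -1.43 without C1, -2.99 with sex as a covariate and -2.98 in males only. S100a9 lay at 10.4, 5.60 and 2.42 CPM in C1, C2 and C3 and at 4.10, 0.854 and 1.04 CPM in M1, M2 and M3. Here M1 was above C3 and the groups overlapped. The means were 6.15 ± 4.04 and 2.00 ± 1.82 CPM and the log2 fold change was -1.62 (SE 0.75), with -2.69 without M1, -1.01 without C1, -2.56 with sex as a covariate and -2.55 in males only.

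The balance of the pair varied less than its level. S100a8 gave 40.9%, 40.2% and 49.7% of the pairs of the 2 genes in C1, C2 and C3 and 36.7%, 36.7% and 34.9% in M1, M2 and M3. The exact 95% binomial interval was 37.2% to 44.6% in C1, with 707 pairs, and 23.3% to 48.0% in M3, with 63. Every mutant share was below every control share, and all 6 intervals overlapped in the range from 42.4% to 43.1%. Such overlap does not decide whether the shares differ, and a change in the balance was not tested. The balance of the 2 receptors against the 2 S100 genes, a share chosen after its values were seen, was less even. The receptors gave 30.1%, 22.7% and 38.6% of the pairs of these 4 genes in C1, C2 and C3, and 22.5%, 48.4% and 46.6% in M1, M2 and M3. M1 (interval 18.0% to 27.5%) lay with C2 (19.2% to 26.4%), whereas M2 (38.0% to 58.9%) and M3 (37.4% to 56.0%) were above them with no overlap of the intervals. So the S100 pair was lower relative to the receptors in M2 and M3 than in M1, C1 and C2, with C3 in between.

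**Figure D2:**
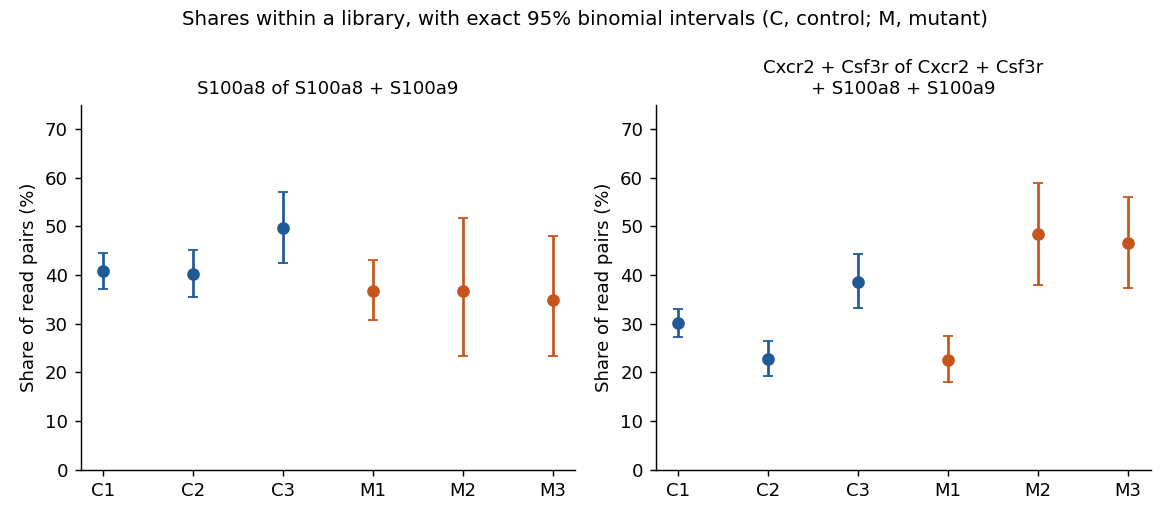
Share of read pairs within each library (vertical axis, percent, from 0) for S100a8 against S100a9 (left) and for Cxcr2 and Csf3r against S100a8 and S100a9 (right); bars are exact 95% binomial intervals, which cover counting error only. The left shares run from 34.9% to 49.7% with overlapping intervals, and the right shares from 22.5% in M1 to 48.4% in M2.

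Retnlg, a secreted resistin-like protein made by mature granulocytes, lay at 1.75, 0.929 and 0.661 CPM in C1, C2 and C3 and at 0.661, 0.165 and 0.331 CPM in M1, M2 and M3. As for S100a8, M1 was level with C3 and M2 was the lowest library. The means were 1.11 ± 0.566 and 0.386 ± 0.252 CPM and the log2 fold change was -1.52 (SE 0.58), or -2.14 without M1 and -1.04 without C1.

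The granule genes did not all follow one pattern. Mmp8, the collagenase of the specific granules, lay at 1.57, 0.521 and 0.356 CPM in C1, C2 and C3 and at 0.211, 0.138 and 0.204 CPM in M1, M2 and M3. Every mutant was below every control, with 8, 5 and 8 counts in M1, M2 and M3, and C1 was 3.59 times the mean of the other controls. The means were 0.817 ± 0.660 and 0.184 ± 0.0404 CPM and the log2 fold change was -2.12 (SE 0.64), or -1.24 without C1.

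Mmp9, the gelatinase of the later granules, which macrophages and other cells also make, lay at 1.97, 1.88 and 2.08 CPM in C1, C2 and C3. It lay at 2.11, 0.965 and 1.25 CPM in M1, M2 and M3. The controls were nearly equal and M1 was the highest library, so the groups overlapped, and the log2 fold change was -0.46 (SE 0.33). Among the tested members Mmp9 alone was not raised in C1, at 0.995 times the mean of C2 and C3, where the other 7 were at 1.79 to 3.59 times.

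Lcn2, which codes for lipocalin 2, an iron-siderophore binding protein of the specific granules that stromal and epithelial cells also make, lay at 2.40, 1.54 and 1.14 CPM in C1, C2 and C3. It lay at 1.06, 1.02 and 0.713 CPM in M1, M2 and M3. The mutants were all below the controls, but M1 and M2 were close to C3. The means were 1.69 ± 0.641 and 0.930 ± 0.189 CPM and the log2 fold change was -0.86 (SE 0.36).

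Ngp and Camp, which code for members of the cathelicidin family stored in specific granules and are transcribed mainly in marrow precursors, were at the edge of detection. Ngp had 17, 16 and 1 counts in C1, C2 and C3 and 1, 1 and 0 in M1, M2 and M3, so its counts came almost wholly from C1 and C2. Summed over the groups these were 34 and 2 counts, a ratio of 15.2 with an exact 95% counting interval from 3.91 to 131, and C3 did not differ from the mutants in its count. Camp had 3, 2 and 1 counts in the controls and 1, 1 and 0 in the mutants, a ratio of 2.69 with an interval from 0.481 to 27.3. Both intervals pool the libraries of a group and cover counting error only, not the spread between animals. The members were chosen by this contrast, so neither ratio is evidence of a group difference. At 3 of 8 Camp read pairs assigned to the opposite strand, even this level is uncertain.

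C1 decided much of the size of the differences. It exceeded every other library by more than 1.5 times in 7 of the 8 tested members, against 2.33% of all tested genes. It was the highest library in 9 of the 10 members, including the untested Ngp and Camp, and for 19.8% of tested genes. The members were chosen for lower counts in mutants, which favours a control as the highest library, so nothing is read from these shares. With C1 left out the median log2 fold change of the 8 was -0.99, and with M1 left out it was -2.03. M2 and M3 lay below every control in all 8 tested members, and M1 did in 6 of 8. The choice of members favours such counts, and no share over all genes was taken for single mutants, so nothing is read from them. M3 was the only male mutant and no control was female, so sex and group were largely confounded, and their separation rests on M3 alone. The part of sex in these values was not tested.

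**Figure D3:**
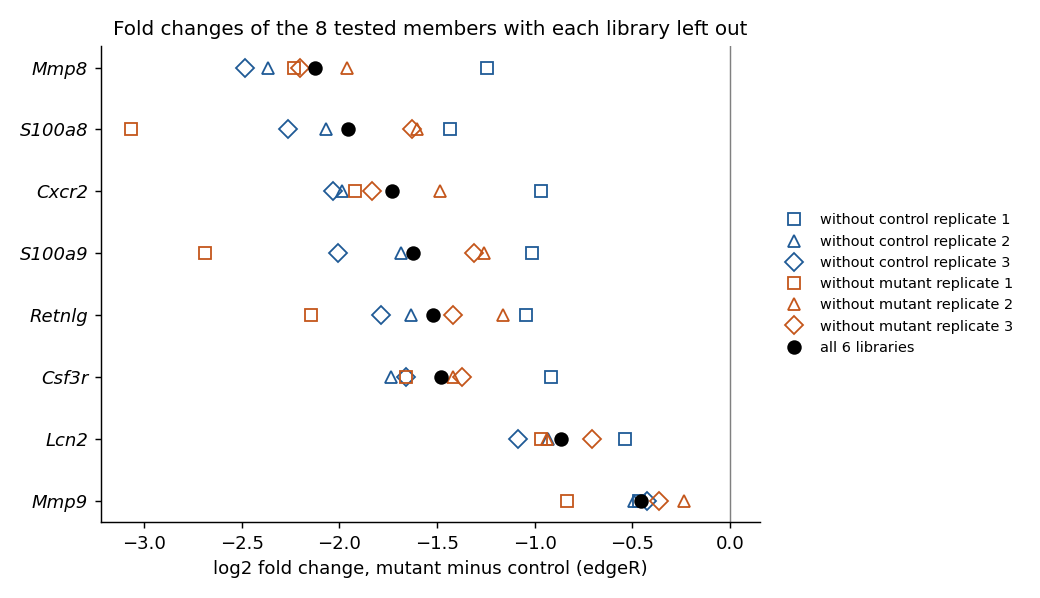
Log2 fold change of mutant minus control (horizontal axis) for each of the 8 members that passed the filter, with all 6 libraries (black) and with each control (blue) or mutant (orange) library left out. All values lie below 0; leaving out C1 moves every member but Mmp9 towards 0, to between -1.43 and -0.54, and leaving out M1 moves S100a8 to -3.07 and S100a9 to -2.69.

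Other genes of neutrophil biology were given by function in 7 lists. Of 83 genes, 50 were tested and edgeR called 0 in either direction, against 0.199% of all genes tested. At an unadjusted p below 0.05, 2 were higher and 5 lower, against 3.25% and 3.69% of all genes. DESeq2 called 2 of them, against 1.18% of all genes. The median log2 fold change over the 50 was 0.06, with 23 lower and 27 higher.

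The primary granule genes Mpo, Elane, Prtn3, Ctsg, Ms4a3 and Fcnb, which mark marrow precursors, were near 0 in all libraries. They had 22 counts in all, summed to 0.0453 to 0.132 CPM, and Ms4a3 had none in any library, which allows up to 3 counts in each. Of 18 other granule and cytosolic genes, 8 were tested, with 6 lower, 2 higher and 0 called by edgeR or DESeq2. The most abundant were Anxa1, a phospholipid-binding protein that many cells make, at 19.0 to 33.1 CPM with the groups overlapping, and Hp, the haemoglobin scavenger haptoglobin, at 33.8, 5.39 and 22.9 CPM in C1, C2 and C3 and 8.54, 17.4 and 7.84 CPM in M1, M2 and M3. Padi4, the enzyme that citrullinates histones when neutrophils release their chromatin, lay at 14.5 CPM in C1, 5.06 CPM in M3 and at most 0.555 CPM elsewhere, an order unlike that of the 10 members.

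Among 21 receptors and adhesion molecules 15 were tested, with 8 lower, 7 higher and 0 called by either tool. The most abundant were Tlr4, a sensor of bacterial lipopolysaccharide, at 3.92 to 12.6 CPM, the integrin chain Itgb2 at 2.90 to 10.3 CPM and the Fc receptor Fcgr3 at 2.67 to 6.82 CPM, all of which macrophages express too. Itgb2 and Fcgr3 were highest in M1, where Itgb2 lay at 10.3 CPM against 3.57 CPM in C1. Ly6g, the antigen used to sort mouse neutrophils, and Cxcr1, the other receptor for the same chemokines, are chosen here after their values were seen. Ly6g had 10, 2 and 3 counts in C1, C2 and C3 and none in the mutants, and Cxcr1 had 6 counts in C1 and at most 1 elsewhere. A count of 0 allows up to 3 counts in a library, so only C1 stood clear of that limit for Ly6g. Other receptors of this list went the other way and are among its 7 higher genes. The log2 fold changes were 0.95 for Ltb4r1, 0.54 for Itgam and 0.30 for C5ar1, likewise picked with their values known.

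Of 12 ligands that call or feed neutrophils 4 were tested, with 3 higher, 1 lower and 0 called by either tool. Cxcl12, the chemokine that holds neutrophils in marrow and is made by stromal cells, lay at 65.7 to 97.8 CPM in controls and 93.6 to 106 CPM in mutants. Ppbp, a platelet chemokine, lay at 0.549 to 2.99 CPM. Il1b, a cytokine of activated myeloid cells, lay at 1.498 CPM in C1 and 0.204 to 0.524 CPM in the other 5 libraries. Cxcl3, Csf2 and Il17a had no counts in any library.

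All 8 genes of adhesion at the vessel wall had a positive log2 fold change, with a median of 0.36 and 0 called by either tool. Pecam1 lay at 59.0 to 70.0 CPM in controls and 65.2 to 87.1 CPM in mutants, and Esam and Vcam1 overlapped likewise. Of 8 transcription factors of granulocytes 6 were tested, with 5 higher and 1 lower, 0 called by edgeR and 1 by DESeq2. That gene, Cebpa, a factor needed to form granulocytes, lay at 7.27 to 8.59 CPM in controls and 11.8 to 16.8 CPM in mutants, with every mutant above every control. Its log2 fold change was 0.82 (SE 0.17) with an adjusted p of 0.321 in edgeR and 0.0203 in DESeq2. Which cells of the muscle made Cebpa was not tested. Cebpe and Gfi1 of the same list had only 16 and 12 counts in all libraries together and did not pass the filter. Cebpb lay at 10.5 to 27.0 CPM in controls and 26.7 to 28.6 CPM in mutants, Cebpd at 5.64 to 13.6 and 13.9 to 25.7 CPM, and Runx1 at 56.0 CPM in C2 against 2.14 to 4.70 CPM in the other libraries.

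Of 10 stress and acute-phase genes, which bear on Lcn2, 9 were tested with 7 lower and 2 higher, 0 called by edgeR and 1 by DESeq2. That gene, Fkbp5, a glucocorticoid-induced chaperone, lay at 133, 45.8 and 90.9 CPM in C1, C2 and C3 and at 26.5, 31.0 and 34.1 CPM in M1, M2 and M3, every mutant below every control. Its log2 fold change was -1.56 (SE 0.36) with an adjusted p of 0.404 in edgeR, 0.0255 in edgeR without C2 and 0.00304 in DESeq2. Fkbp5 and Cebpa are named because DESeq2 called them. Pdk4 lay at 89.7 to 415 CPM in controls and 281 to 685 CPM in mutants, Tsc22d3 at 317 CPM in C1 and 106 to 173 CPM elsewhere, and Cdkn1a at 326 CPM in C2 and 14.3 to 21.2 CPM elsewhere.

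Markers of other cells differed from each other in their order over the libraries. The 7 red blood cell genes, led by Hbb-bs and Hba-a1, summed to 772, 2068 and 982 CPM in C1, C2 and C3 and 1526, 1368 and 2028 CPM in M1, M2 and M3, so C1, the highest library for neutrophil genes, was the lowest for these. DESeq2 called 1 of them, Hba-a2, higher at a log2 fold change of 1.30 and an adjusted p of 0.00993, against 0.424 in edgeR. Pairs that match the near-identical Hba-a1 equally well were left out as multimapping, so the level of Hba-a2 is uncertain. The platelet list, led by Pf4 and Gp1ba, summed to 10.4 to 15.7 CPM in controls and 9.92 to 12.3 CPM in mutants. Gp1ba had 25 pairs on its own strand and 1002 on the opposite one, so nearly all of its counts came from the other strand, and without it the list summed to 4.87 to 11.1 and 6.01 to 7.85 CPM. The macrophage list, with all 10 genes tested and led by Lyz2 and Mrc1, summed to 122 to 190 and 141 to 239 CPM, 2 members being lower and 8 higher.

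The monocyte list, led by Ace and Ccr2, summed to 41.8 to 94.0 and 45.0 to 68.9 CPM, and all 5 tested genes were lower, with a median log2 fold change of -0.18. Ace, an endothelial gene as well, gave most of the sum. Ly6c2, an antigen of inflammatory monocytes, lay at 1.52, 1.13 and 3.13 CPM in C1, C2 and C3 and at 0.106, 0.276 and 0.204 CPM in M1, M2 and M3. Every mutant was below every control, but C3, not C1, was the highest. Its log2 fold change was -3.29 (SE 0.54), with an adjusted p of 0.151 in edgeR, 0.00104 in edgeR with no filter on low counts and 1.34e-05 in DESeq2. Pairs that match its close paralog Ly6c1 equally well were left out as multimapping, so its level is uncertain. Plac8, which neutrophils express too, lay at 4.40, 0.498 and 2.72 CPM in C1, C2 and C3 and at 1.22, 1.52 and 0.611 CPM in M1, M2 and M3, with the groups overlapping and a log2 fold change of -1.19 (SE 0.73).

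The B cell list summed to 275 CPM in C1, 8.45 and 45.9 CPM in C2 and C3 and 17.6 to 22.5 CPM in mutants. That came from Ighm, the immunoglobulin heavy chain gene, whereas Cd79b, the next of the list, lay at 0.175 CPM in C1 and 0.484 to 1.30 CPM in the other libraries. The T cell list, led by Cd3e and Trac, summed to 1.57, 1.72 and 1.53 CPM in C1, C2 and C3 and to 1.56, 1.27 and 1.30 CPM in M1, M2 and M3, an order close to that of the 10 members. Cd3e had 17 pairs on its own strand and 240 on the opposite one, and without it the list summed to 0.425 to 0.861 CPM in controls and 0.413 to 0.899 CPM in mutants. The mast cell and basophil list, led by Mcpt4 and Tpsb2, summed to 6.57 to 13.1 and 8.99 to 17.8 CPM. The eosinophil list, led by Ccr3 and Siglecf, summed to 0.181 to 0.305 CPM in controls and 0.331 to 1.80 CPM in mutants, with Epx at 0 throughout. The keratinocyte list was checked because skin also makes S100a8 and S100a9. Krt10, its only tested gene, lay at 1.79 to 3.07 CPM, with Krt1 next at 0.0763 CPM or less and Krt5 at 0 in all libraries. The part of any of these cells in the values of the 10 members was not tested.

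**Figure D4:**
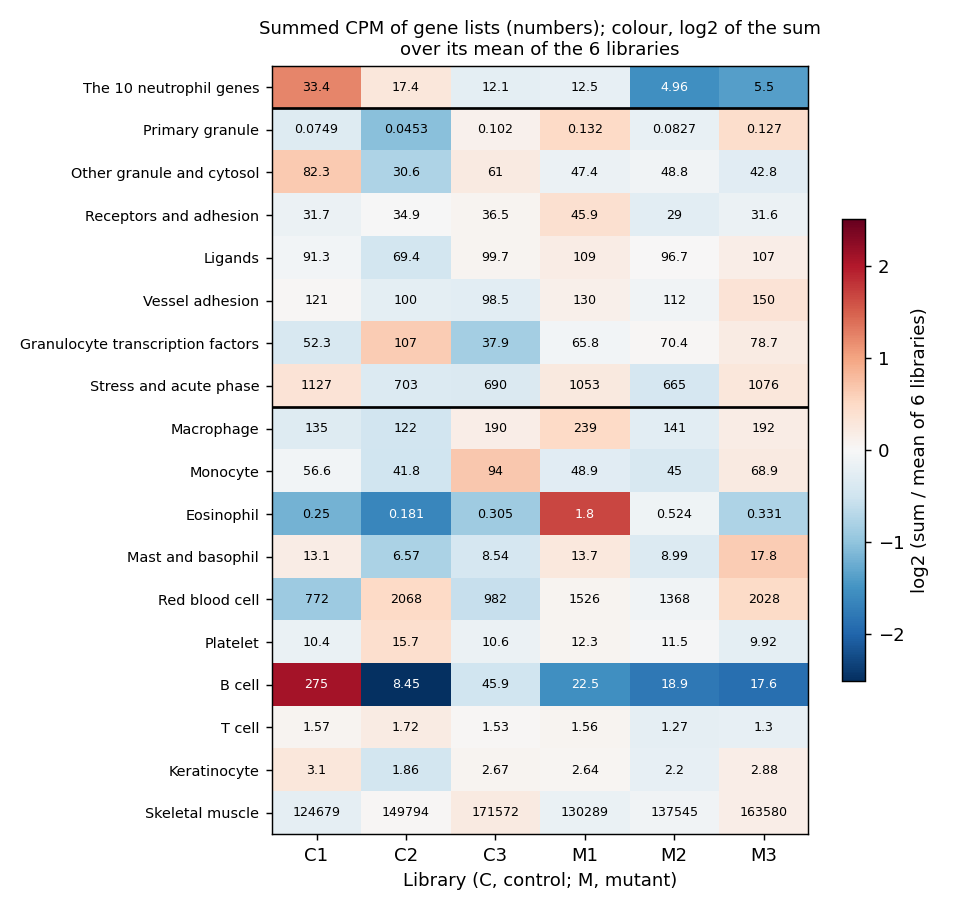
Summed CPM of the 10 neutrophil genes, 7 lists of neutrophil biology and 10 lists of other cells (rows) in each library (columns); the number is the sum, and the colour is the log2 of the sum over its mean of the 6 libraries. The top row falls from 33.4 CPM in C1 to 4.96 CPM in M2, and the red blood cell row is lowest in C1.

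The share of pairs on the opposite strand adds a readout that did not enter the choice. Of the members' strand-assigned pairs, 3437 lay on the strand of the gene and 14 on the opposite strand, or 0.406%. With the pairs of all genes pooled, the share was 6.60% to 7.20% in the 6 libraries. Genes with many pairs weigh most in that figure. Single genes outside the members also lay low, such as Cxcl12 with 45 opposite-strand pairs beside 21806 and Anxa1 with 13 beside 6429. Gp1ba and Cd3e lay far higher. A low share is therefore not particular to the members. Mmp8, with 5 opposite-strand pairs beside 116, and Camp were the members with more than 2. With strand-matched counts the log2 fold change of Mmp8 was -2.05. That value rests on nearly the same pairs as the contrast that chose the members, so nothing is read from it.

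The genes most like the members over the 6 libraries were sought among 11755 others with a mean of at least 1 CPM. Likeness was Pearson's r between log2(CPM + 0.1) and the mean standardised profile of the 8 tested members, given as a description of 6 libraries that share tissue and group. Sod1 (r = 0.99), Dpf3 (0.99), mt-Tp (0.98), Pcbp4 (0.98), Tsfm (0.97), Ddit3 (0.97), Dynlrb1 (0.97) and Rpl30 (0.97) came first. Sod1, the cytosolic superoxide dismutase, ran from 135 CPM in C1 to 99.0 CPM in M2, a smaller ratio of highest to lowest library than in any member. The minimum of 1 CPM left out most other neutrophil genes, so nothing is read from their absence among the 8.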

How the data were processed

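Poly(A) RNA of 6 gastrocnemius muscles was sequenced as paired 61 bp reads from directional libraries, per the labels' protocols. The values are the authors' raw counts of read pairs in each gene, made with STAR 2.7.11b on GRCm39 per the submitters' processing notes, with no annotation release given in the sources used here. The count matrix equals the unstranded column of the per-library files in all 57010 genes. Entries that name no gene (18.5% to 22.3% of pairs) were left out. The authors' deposited table, from DESeq2 1.50.2 per the same notes and the file headers, gives log2 fold changes with their errors, Wald scores, p-values and a mean normalized signal; it was used only for the sentence that names it.

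Groups were compared in edgeR 4.0.16 under R 4.3.3: filterByExpr (minimum count 10), TMM, robust quasi-likelihood F-test, mutant against control, Benjamini-Hochberg adjustment over 15589 genes, called below 0.05. CPM uses TMM-scaled library sizes. SE is the log2 fold change over the root of F. DESeq2 1.42.0 was an alternative, with others on normalization, filter, sex, strand, the replicate block, males only and each library left out. The edgeR procedure was tested on simulated data. Named genes are the 10 members, called genes and the 3 most abundant of each neutrophil list, the 2 most abundant of other lists, and the 8 most alike by correlation. Primary granule genes were described as a list, since they were near 0. Other genes named in the text (Ly6g, Cxcr1, Ltb4r1, Itgam, C5ar1, genes at 0, Ly6c2, Plac8, Cebpa, Cebpe, Gfi1, Fkbp5, Hba-a2, Krt1, the muscle genes and the strain check) are not covered by it, and were picked with their values known. The 2 list sums without a gene read mostly from the opposite strand were likewise added late. A further list of neutrophil genes is not reported here. Members and lists were chosen with earlier results of these data known. Each animal was an independent replicate per the labels; every pair of libraries differed beyond sampling noise (smallest chi-square over its degrees of freedom, 49.4). Plots used matplotlib 3.10.9.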

Additional observations from a re-analysis of the deposited data

How the results depend on the processing

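All 8 tested members kept a negative log2 fold change in each of the 14 alternatives in which they were tested, from -3.07 to -0.24. Of 109 such values 6 moved by more than the spread between replicates: Cxcr2, Csf3r and Mmp8 without C1 (-0.97, -0.92 and -1.24) and S100a8 with sex as a covariate (-2.99), in males only (-2.98) and without M1 (-3.07). The members' median ran from -2.03 to -0.99 with 1 library left out, the ends being without M1 and without C1. With a filter of 1 CPM in 3 libraries only 5 members were tested, and all 5 were lower. Over all genes edgeR called 31 genes, 79 with no filter on low counts, 0 with sex as a covariate (882 at an unadjusted p below 0.05), 0 in males only (594), where 1 mutant is assumed to vary like the controls, and 6 to 49 with 1 library left out (49 without C2, 7 without M1 and 6 without M2), and DESeq2 called 184; the cause was not tested. With the replicate block edgeR called 11 genes, and no member. The correlation of the deviations of same-numbered libraries was 0.18, -0.06 and 0.19 for replicates 1, 2 and 3. Between libraries of unlike number it ran from -0.25 to 0.16. With 3 libraries in each group these values cannot show whether same-numbered libraries shared more than a number, which was not tested. In the neutrophil lists the count of called genes was 0, with 2 in DESeq2 (Cebpa at a log2 fold change of 0.81 and Fkbp5 at -1.56, named after their values were seen) and 0 to 1 with 1 library left out (Fkbp5 without C2). Ngp and Camp rest on 36 and 8 counts, and at this depth a level under 3 counts in a library is not resolved.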
